A study of Mus musculus with 20 samples.

Results

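The genes described are the nuclear genes that encode the subunits of mitochondrial oxidative phosphorylation, followed in fibroadipogenic progenitors (FAPs) of mouse hindlimb muscle during the growth of a pancreatic tumour. They were chosen by gene symbol alone, as the symbols that begin with Nduf followed by a, b, c, s or v and a number, Sdha to Sdhd, and those that begin with Uqcr, with Cox and a number from 4 to 8, or with Atp5. The rule found 84 genes among the 24394 symbols shared by the count tables of all days. They comprise 37 genes listed under complex I, 4 under complex II, 8 under complex III, 18 under complex IV and 17 under complex V. The rule used no expression value. The symbol does not always give the complex: Ndufa4 encodes a subunit now assigned to complex IV and Ndufa4l2 its paralog, Cox7a2l encodes a factor for supercomplexes of the chain, Atp5s a coupling factor, and Atp5sl (now Dmac2) a protein of complex I assembly. Ndufab1 is not matched by the rule, and the subunits encoded by mitochondrial DNA are not analysed here.

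Complex I takes electrons from NADH and complex II from succinate, and both pass them through ubiquinone to complex III, which hands them by cytochrome c to complex IV, where oxygen is reduced. Complexes I, III and IV pump protons, and complex V, the ATP synthase, lets them flow back to make ATP. Complexes I and V each have a set of core or catalytic subunits that do the chemistry and many small accessory or membrane subunits that are needed for assembly and stability. Several complex IV subunits exist in a ubiquitous form and a form restricted to tissues such as heart, skeletal muscle, lung or testis. The myofibres that surround the progenitors are rich in mitochondria and express these genes highly.

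FAPs are stromal cells of muscle that can form fibroblasts and adipocytes. Male C57BL/6J mice received KPCY cells, a mouse pancreatic tumour line, in the pancreas (2 M cells, where M stands for mega, in a volume of 50 µL; KPC groups), or had sham surgery (controls). FAPs were freshly sorted from hindlimb muscle as live nucleated cells negative for CD31, CD45 and α7-integrin and positive for SCA-1, at day 14 (3 control and 4 KPC libraries), day 21 (3 and 3) and day 26 (4 and 3). The labels call the libraries biological replicates and give no age, and all tumours came from a single cell line. Each library held 12.9 to 26.4 megacounts, and values are in CPM (counts per megacount of the library, after TMM scaling within a day).

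The progenitor gene Pdgfra lay between 1196 and 1700 CPM and Ly6a, which encodes SCA-1, between 503 and 1417 CPM in all 20 libraries. Markers of cells that the sort should remove were present at low levels and were often higher in KPC. The summed level of 12 endothelial markers was 426 to 520 CPM in control and 598 to 816 CPM in KPC libraries at day 14, 554 to 591 and 513 to 1050 CPM at day 21, and 380 to 556 and 328 to 1130 CPM at day 26, with none of the markers at 0. In the control libraries of day 21 most of this sum was Tek, which was 449 to 493 CPM in controls and 294 to 394 CPM in KPC and was called lower, while 7 of the 12 markers were called higher at that day. Among them Pecam1 was 19.2, 19.7 and 15.02 CPM in controls and 142.5, 84.3 and 37.8 CPM in KPC. Library codes in the labels begin with a number whose meaning is not given in the sources used here. At days 14 and 21 no number was shared by both groups, so that whatever it stands for and the tumour cannot be told apart. At day 26, control replicates 1 to 3 and KPC replicates 1 and 2 share the number. KPC replicate 3 at day 26 stood apart from the other KPC libraries: on the first principal component of the 1000 most variable genes (40.5% of variance) it lay at -11.8, near the controls of that day (-30.4 to -17.2) and far from KPC replicates 1 and 2 (86.4 and 43.7). The 13 progenitor markers summed to 41200 and 66570 CPM in KPC replicates 1 and 2 and to 112900 CPM in KPC replicate 3, against 107800 to 125600 CPM in controls. At day 21, KPC replicate 1 carried the most myofibre RNA of any library, 609 CPM summed over 15 markers. Results at these days are given with and without these libraries.

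Promoters are shown for the 3 genes called at day 21 (Ndufb3, Ndufa13, Atp5sl) and for 4 of the genes whose tumour effect differed between days 14 and 26 (Ndufc1, Ndufs4, Ndufa11, Atp5e), because these genes carry the results below. Each runs from 250 bases before to 50 bases after the transcription start in RefSeq, assembly GRCm38.p6, and is printed 5′ to 3′ along the gene. Capitals mark exact matches, on either strand, to CCGGAAG (an ETS motif), GCGCATGC (NRF1), AAGATGGCG (YY1) or CAAGGTCA (ERR), short motifs of factors known to bind promoters of mitochondrial genes.
Ndufb3, chr1:58586147-58586446, plus strand: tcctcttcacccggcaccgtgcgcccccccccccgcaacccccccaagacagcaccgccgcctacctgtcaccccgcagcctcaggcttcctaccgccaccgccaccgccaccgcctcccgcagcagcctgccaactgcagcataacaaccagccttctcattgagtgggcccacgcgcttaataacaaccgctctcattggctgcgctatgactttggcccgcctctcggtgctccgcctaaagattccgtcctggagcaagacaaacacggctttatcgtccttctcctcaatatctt
Ndufa13, chr8:69901971-69902270, minus strand: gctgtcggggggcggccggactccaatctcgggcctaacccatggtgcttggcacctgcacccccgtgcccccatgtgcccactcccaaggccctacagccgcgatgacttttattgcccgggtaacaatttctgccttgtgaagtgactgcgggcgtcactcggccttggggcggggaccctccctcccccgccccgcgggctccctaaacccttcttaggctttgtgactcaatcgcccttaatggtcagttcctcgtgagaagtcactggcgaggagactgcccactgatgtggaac
Ndufc1, chr3:51408906-51409205, minus strand: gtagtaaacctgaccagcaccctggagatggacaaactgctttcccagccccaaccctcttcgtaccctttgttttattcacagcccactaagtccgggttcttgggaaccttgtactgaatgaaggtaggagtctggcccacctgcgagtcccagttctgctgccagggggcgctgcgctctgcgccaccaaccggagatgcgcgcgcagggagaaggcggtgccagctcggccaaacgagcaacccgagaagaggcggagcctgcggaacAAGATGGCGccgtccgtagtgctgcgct
Ndufs4, chr13:114388045-114388344, minus strand: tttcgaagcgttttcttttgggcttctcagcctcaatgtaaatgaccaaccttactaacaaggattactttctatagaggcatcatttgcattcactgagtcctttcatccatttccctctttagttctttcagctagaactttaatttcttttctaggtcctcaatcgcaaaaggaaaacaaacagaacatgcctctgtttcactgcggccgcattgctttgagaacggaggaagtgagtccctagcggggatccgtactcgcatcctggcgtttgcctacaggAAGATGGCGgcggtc
Ndufa11, chr17:56717512-56717811, plus strand: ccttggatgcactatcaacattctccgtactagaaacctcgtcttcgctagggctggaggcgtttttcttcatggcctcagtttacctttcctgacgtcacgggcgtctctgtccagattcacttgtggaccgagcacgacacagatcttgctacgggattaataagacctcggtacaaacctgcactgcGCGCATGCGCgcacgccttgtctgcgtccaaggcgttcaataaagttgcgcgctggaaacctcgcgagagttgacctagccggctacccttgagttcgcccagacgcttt
Atp5e, chr2:174464052-174464351, minus strand: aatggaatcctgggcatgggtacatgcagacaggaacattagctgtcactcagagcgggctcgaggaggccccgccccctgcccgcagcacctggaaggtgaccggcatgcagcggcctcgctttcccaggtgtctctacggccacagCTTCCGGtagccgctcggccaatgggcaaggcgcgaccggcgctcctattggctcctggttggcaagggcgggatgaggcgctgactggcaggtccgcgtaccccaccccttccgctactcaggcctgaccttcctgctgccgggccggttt
Atp5sl (RefSeq Dmac2), chr7:25619164-25619463, plus strand: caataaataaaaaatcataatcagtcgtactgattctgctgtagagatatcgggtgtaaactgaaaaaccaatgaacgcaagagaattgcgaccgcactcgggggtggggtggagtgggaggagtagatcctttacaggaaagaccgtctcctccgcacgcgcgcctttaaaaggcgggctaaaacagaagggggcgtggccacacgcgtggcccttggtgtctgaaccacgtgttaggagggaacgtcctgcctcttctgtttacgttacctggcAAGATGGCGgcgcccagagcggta
The capitals in Ndufa11 are 2 overlapping NRF1 matches, on opposite strands. The same YY1 letters stood in Ndufc1, Ndufs4 and Atp5sl. Ndufc1 and Ndufs4 lay below control in KPC at day 26 but were not called in the comparison of all libraries of that day. Atp5sl was called higher in KPC at day 21. A RefSeq promoter was found for 69 of the 84 genes, 3 of them through an older name. The ETS letters were in 16 of them (23.2%, against 9.93% of 27025 genes with a promoter), the NRF1 letters in 14.5% (3.05% of all), the YY1 letters in 11.6% (1.64%) and the ERR letters in 5.80% (1.76%). At least 1 of the 4 motifs was present in 30 promoters (43.5%, against 15.1%). These are matches of letters and no measure of binding.

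The subunit genes took 0.390% to 0.535% of all counts in a library. Summed over the genes, the mean level (± SD) at day 14 was 4389 ± 187 CPM for the 3 controls and 4612 ± 463 CPM for the 4 KPC libraries. It was 4725 ± 429 and 4233 ± 211 CPM at day 21 (n = 3 each), and 4848 ± 451 (n = 4) and 4363 ± 535 CPM (n = 3) at day 26. The groups overlapped at each day. Per kilobase of transcript, the highest median over the 20 libraries was that of Atp5b, the catalytic beta subunit of ATP synthase, at 240 CPM per kb (209 to 323). Cox4i1, the ubiquitous form of the largest nuclear complex IV subunit, followed at 230 CPM per kb (156 to 292), Cox6a1 at 178 (132 to 261) and Uqcrh, the hinge protein of complex III, at 160 (119 to 214). These neighbours overlapped in range. Tissue-restricted forms of complex IV subunits had medians of at most 2.74 CPM per kb.

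**Figure D1:**
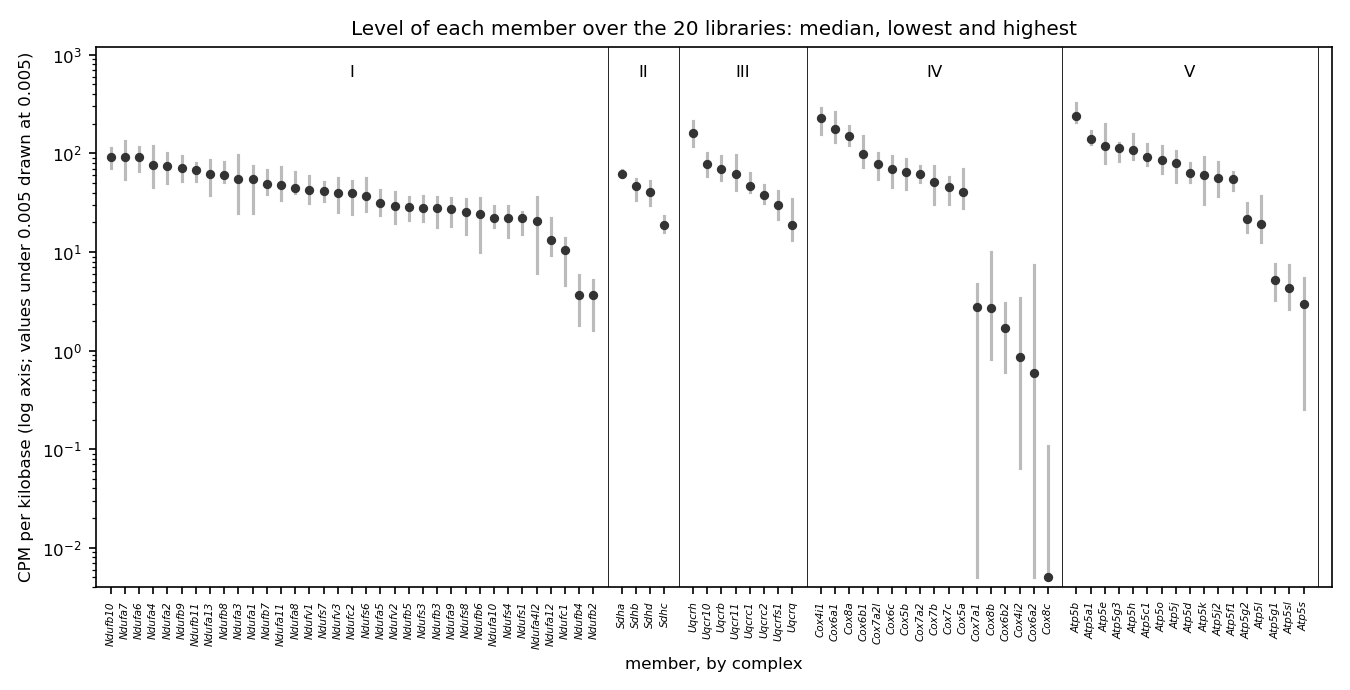
Level of the named subunit genes per kilobase of transcript (CPM per kb, log axis) by complex; points are the median and lines the lowest to highest of the 20 libraries, with values under 0.005 drawn at 0.005. Atp5b (240) and Cox4i1 (230) lead, and the tissue-restricted complex IV forms lie at 2.74 or less.

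Ndufs5, an accessory subunit of complex I, had 0 counts in all 20 libraries, which allows up to 3 counts in each for counting error. Of the windows of 59 bases in its transcript, 28.6% also occur in another gene, BC002163, and how such reads were assigned is not given in the sources used here. Cox7b2 had 0 counts and Cox8c a single count. These 3 genes were tested at no day and Cox6a2 was too low to test at day 21, which left 81, 80 and 81 of the 84 genes at days 14, 21 and 26.

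At day 14 no subunit gene was called different between KPC and control FAPs, and most lay slightly above control. None of the 81 tested genes passed an adjusted p of 0.05 (edgeR quasi-likelihood test, Benjamini-Hochberg over 13344 genes), where 0.682% of all genes rose and 0.435% fell. Their median log2 fold change was 0.07 (0.01 over all genes), with 58 above 0 and 23 below. At an unadjusted p under 0.05, 8 were higher (9.88%, against 7.8% of all genes) and 1 was lower. In 10 of the 81 (12.3%) every KPC library lay above every control, against 7.52% of all genes. The medians by complex were 0.09, 0.08, 0.05, 0.08 and 0.05 for complexes I to V.

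By role, the complex I subunits with the highest values were Ndufa4l2 (log2 0.50 ± 0.18, SE) and Ndufs7, a core iron-sulfur subunit (0.26 ± 0.11), and the lowest were Ndufv2 (-0.12) and Ndufb3 (-0.11). In complex II the catalytic subunits Sdhb (0.29 ± 0.12) and Sdha (0.14) lay above the membrane anchors Sdhd (0.02) and Sdhc (-0.01). Complex III spanned -0.12 (Uqcrb) to 0.20 (Uqcr10). In complex V, Atp5d of the central stalk (0.23) and Atp5g2 of the c-ring (0.23) were highest, and Atp5s (-0.42) and Atp5g1 (-0.19) lowest. None of these passed the test. Without KPC replicate 2 the median was 0.02 and 37 of 80 genes lay below 0, without KPC replicate 1 it was 0.02, without control replicate 2 it was 0.03, and without KPC replicate 3 it was 0.13. DESeq2 called 2 of the subunit genes (2.47%, against 4.5% of all genes).

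**Figure D2:**
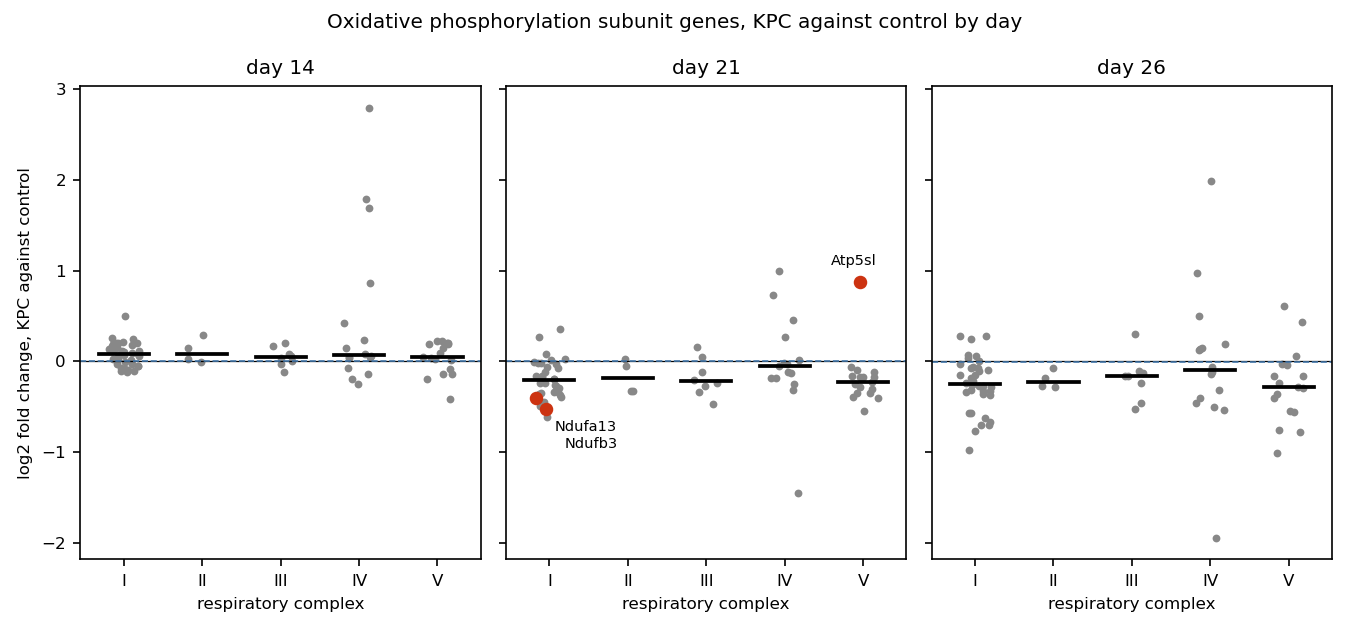
Log2 fold change (KPC over control) of each tested subunit gene by complex at days 14, 21 and 26; black bars are medians by complex, the dashed blue line is the median of all genes tested, and red points passed an adjusted p of 0.05. Complex medians lie at 0.05 to 0.09 at day 14, -0.23 to -0.05 at day 21 and -0.28 to -0.09 at day 26, and 3 genes are red, all at day 21.

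The largest differences at day 14 were in complex IV forms typical of muscle, at very low levels. Cox6a2, the form of heart and skeletal muscle, measured 0.242, 0.0687 and 0.160 CPM in the controls and 0.468, 1.40, 2.17 and 0.769 CPM in KPC. Every KPC library lay above every control, but the difference did not pass the test (log2 2.80 ± 0.79, SE, adjusted p 0.1035). Cox8b, also a form of heart and muscle, measured 0.871, 0.618 and 0.480 CPM in controls and 1.17, 3.72, 2.63 and 1.74 CPM in KPC (1.79 ± 0.54, adjusted p 0.125). Cox4i2, a lung form also known from mural cells, measured 0.435, 0.412 and 0.107 CPM against 1.358, 0.827, 1.32 and 0.688 CPM (1.70 ± 0.67, adjusted p 0.257). The groups did not overlap for either gene. Cox7c (0.42) was the highest ubiquitous subunit, while Cox7a2l (-0.25) and Cox7b (-0.19) were the lowest of complex IV.

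Myofibre markers were also higher in most KPC libraries. Their summed level (15 genes, 0 to 2 of them at 0 in a library) was 33.9 to 136 CPM in controls and 119 to 356 CPM in KPC at day 14, 32.7 to 60.1 and 56.3 to 609 CPM at day 21, and 36.9 to 121 and 91.9 to 344 CPM at day 26. At day 14 the highest values did not fall in the same library. Cox6a2 was highest in KPC replicate 3 (myofibre sum 356 CPM), Cox8b in KPC replicate 2 (148 CPM) and Cox4i2 in KPC replicate 1, whose myofibre sum of 119 CPM was the lowest of the KPC libraries. Cox4i2 was nearly as high in KPC replicate 3 (1.32 against 1.358 CPM, 17 and 29 counts). Control replicate 1 and KPC replicate 4 had like myofibre sums (136.1 and 136.2 CPM) and 0.242 and 0.769 CPM of Cox6a2 (5 and 19 counts). These orders rest on few counts. At day 26 Cox6a2 was 0.475, 0.927, 0.348 and 0.327 CPM in controls and 5.02, 0.845 and 0.351 CPM in KPC (log2 1.98 ± 0.89, adjusted p 0.154), and the high library, KPC replicate 1, had a myofibre sum of 344 CPM, against 609 CPM in KPC replicate 1 of day 21, where Cox6a2 was 1.12 CPM. At day 26 Cox4i2 (0.97) and Cox8b (0.50) overlapped between the groups, as they did at day 21 (1.00 and 0.74). At day 14 the summed mural cell markers were 144 to 232 CPM in controls and 275 to 393 CPM in KPC, with Notch3 called higher. Adipocyte markers (33.7 to 68.9 and 94.0 to 211 CPM) and glial markers (26.6 to 49.6 and 71.9 to 143 CPM) did not overlap either. Tenocyte markers did (644 to 1044 and 796 to 1859 CPM). Most of the adipocyte sum was Fabp4 (28.9 to 62.9 and 91.7 to 199 CPM), and Adipoq overlapped (0.137 to 0.387 and 0.162 to 0.569 CPM). The part of RNA of myofibres or of these other cells in the values of the isoforms was not tested. In bulk RNA, fewer or more cells of a type and less or more RNA per cell cannot be told apart.

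Cox7a1, the heart and muscle form of subunit VIIa, had a log2 fold change above 0 at day 14, like the other muscle forms, but below 0 at days 21 and 26. It measured 1.40, 0.550 and 0.640 CPM in controls and 1.87, 1.65, 1.78 and 1.13 CPM in KPC at day 14, and 1.52, 1.54 and 0.914 against 0.358, 0.250 and 0.812 CPM at day 21. At day 26 it was 1.84, 1.03, 1.199 and 1.31 CPM in controls and 0.112, 0 and 0.903 CPM in KPC. KPC lay below every control at the later days, but neither difference passed the test (log2 -1.45 ± 0.73, adjusted p 0.223, at day 21 and -1.94 ± 0.99, adjusted p 0.192, at day 26). The KPC counts at day 26 were 2, 0 and 18. The ubiquitous partners were all tested at each day and none was called: Cox4i1 had log2 fold changes of -0.07, -0.05 and 0.14 at days 14, 21 and 26, Cox6a1 0.04, -0.31 and -0.32, Cox7a2 0.06, -0.12 and -0.12, and Cox8a 0.23, -0.18 and -0.14. Cox6b1 had 0.05, -0.25 and -0.50 beside 0.15, 0.46 and -0.46 for its testis form Cox6b2.

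**Figure D3:**
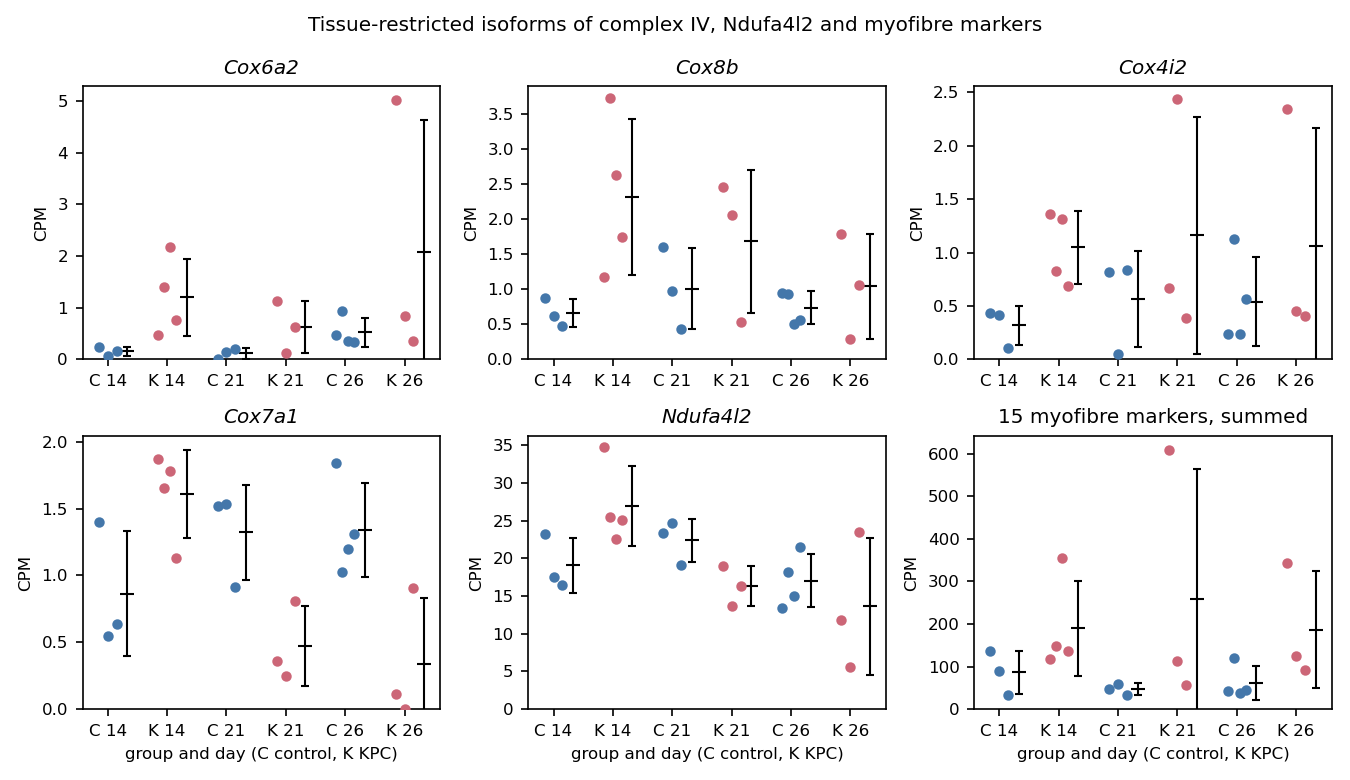
CPM in each library of Cox6a2, Cox8b, Cox4i2, Cox7a1 and Ndufa4l2, and the summed CPM of 15 myofibre markers, for control and KPC libraries at each day; bars are the mean ± SD, cut at 0. Cox6a2 reaches 5.02 CPM in KPC replicate 1 at day 26, and Cox7a1 lies at 0 to 0.903 CPM in KPC at day 26 against 1.03 to 1.84 CPM in controls.

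At day 21 Ndufb3 and Ndufa13, accessory subunits of complex I, fell and Atp5sl rose in KPC, and most other subunit genes lay slightly below control. Of 80 tested genes 2 fell (2.50%, against 6.11% of all genes) and 1 rose (1.25%, against 6.38%). The median log2 fold change was -0.18, against 0.01 over all genes, with 66 below 0 and 14 above, and without control replicate 3 it was -0.28. At an unadjusted p under 0.05, 19 were lower (23.8%, against 13.4% of all genes) and 1 was higher. In 14 (17.5%) every KPC library lay below every control, against 17.2% of all genes. Marker sums differed between the same libraries: the 13 progenitor markers summed to 119300 to 128300 CPM in controls and 98580 to 106900 CPM in KPC, with Pi16, Cd34, Thy1, Col1a1 and Col3a1 called lower and Cxcl14 and Dcn called higher, and the 9 adipocyte markers to 26.8 to 41.9 and 138 to 261 CPM, with Fabp4 and Car3 called higher. Neither pair of ranges overlapped, and their part in the values of the subunit genes was not tested. Most of the adipocyte sum was Fabp4 (24.8 to 39.6 CPM in controls and 128 to 246 CPM in KPC).

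Ndufb3, an accessory subunit of the membrane arm, measured 23.7, 23.3 and 22.3 CPM in controls and 16.5, 14.7 and 17.0 CPM in KPC. The KPC libraries all lay below the controls (log2 -0.52 ± 0.15, SE, adjusted p 0.0400). Ndufa13, an accessory subunit also known as GRIM-19, measured 101.6, 93.9 and 87.7 CPM in controls and 79.7, 67.4 and 67.7 CPM in KPC (log2 -0.40 ± 0.11, adjusted p 0.0386), again without overlap. Its transcript shares 27.2% of its windows of 59 bases with other genes, foremost Tssk6 on the opposite strand. Atp5sl measured 6.30, 8.01 and 10.7 CPM in controls and 15.2, 17.1 and 13.8 CPM in KPC (log2 0.88 ± 0.23, adjusted p 0.0271). Every KPC library lay above every control.

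These calls were close to the threshold. Ndufb3 and Ndufa13 were not called when any library other than KPC replicate 1 was left out, and Atp5sl was not called without control replicate 1, control replicate 2 or KPC replicate 2. With all libraries DESeq2 called 6.25% of the tested subunit genes, against 17.2% of all genes, and with scaling by library size alone Ndufb3 and Ndufa13 had adjusted p-values of 0.0601 and 0.0715. Under that scaling 58 subunit genes instead of 66 lay below 0, and 1058 of all genes rose and 613 fell, in place of 839 and 804.

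By complex, the medians at day 21 were -0.21, -0.19, -0.22, -0.05 and -0.23 for complexes I to V. Within complex I the membrane-arm accessory subunits had a median of -0.31, with 17 of 18 below 0 and 9 lower at an unadjusted p under 0.05. The matrix-arm accessory subunits had a median of -0.16 (6 of 9 below 0), and the 7 core subunits, which carry the flavin and the iron-sulfur clusters, a median of -0.03. The difference between these roles was not tested. Beside the called genes, the lowest values of complex I were those of Ndufb6 (-0.61, adjusted p 0.116), Ndufc1 (-0.50) and Ndufa11 (-0.49), and the highest those of Ndufa12 (0.35) and Ndufa6 (0.27). For Ndufb6, 33.1% of windows are shared with another gene.

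In complex II, Sdhd (-0.32) and Sdhb (-0.32) were lowest and Sdha, the flavoprotein, lay at 0.03. In complex III the small subunits Uqcr11 (-0.47) and Uqcrq (-0.34) were lowest and Uqcrh was highest (0.16). In complex V all 5 F1 subunits, all 4 stalk subunits, the 3 c-ring genes and the 3 small membrane subunits lay below 0. Atp5e, the epsilon subunit, was lowest (-0.54, adjusted p 0.0688), followed by Atp5g1 of the c-ring (-0.40), and Atp5g3 of the c-ring lay at -0.34 (adjusted p 0.0527). In complex IV, where no gene was called, Cox6a1 (-0.31) was the lowest ubiquitous subunit.

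Without KPC replicate 1, the library with the most myofibre RNA and the highest Pecam1 of that day (142.5 CPM, an endothelial gene), 16 subunit genes fell (20%, against 10% of all genes) and 2 rose (2.50%, against 9.72%). The fallen genes were Atp5d, Atp5e, Atp5g1, Atp5j2, Atp5k, Cox6a1, Ndufa2, Ndufa4l2, Ndufa11, Ndufa13, Ndufb3, Ndufb6, Ndufb7, Sdhb, Uqcrc1 and Uqcrq, and Atp5sl and Cox7a2l rose. Of these, 7 belong to complex I by symbol, and the deepest was Ndufb6 (-0.85). KPC replicate 1 had 57.7 CPM of Sdhb against 37.7 and 42.9 CPM in the other KPC libraries and 54.4 to 61.8 CPM in controls. The part of the other cell types in this shift was not tested.

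At day 26 no subunit gene was called in the comparison of all 7 libraries, and neither was any other gene (0% higher and 0% lower of 13157). The unadjusted values again lay below 0. The median was -0.21 (-0.003 over all genes), with 63 genes below 0 and 18 above. It was nearer to 0 without control replicate 4 (-0.11) or KPC replicate 2 (-0.11) and in the libraries with the shared code number (-0.11). Without KPC replicate 1 it was -0.27, with 68 of 81 genes below 0. Without KPC replicate 3 it was -0.19, with 58 of 81 below 0. With all 7 libraries, 19 were lower at an unadjusted p under 0.05 (23.5%, against 13.9% of all genes) and 1, Atp5sl, was higher. In 25 genes (30.9%) every KPC library lay below every control, against 14.5% of all genes. DESeq2 called 9 subunit genes lower (11.1%, against 7.86% of all genes) and 1 higher (1.23%, against 13.7%). The medians were -0.25, -0.22, -0.16, -0.09 and -0.28 for complexes I to V.

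Ndufc1, a small membrane-arm subunit of complex I, had the lowest value of that complex. It measured 12.7, 12.7, 15.3 and 16.6 CPM in controls and 5.80, 6.70 and 9.33 CPM in KPC (log2 -0.97 ± 0.23, SE, adjusted p 0.0634). All KPC libraries lay below the controls, KPC replicate 3 nearest to them. Ndufa11, another membrane-arm subunit, measured 32.4, 29.4, 37.8 and 38.9 CPM in controls and 21.6, 17.6 and 24.9 CPM in KPC (-0.70 ± 0.17, adjusted p 0.0656). Ndufs4, a matrix-arm accessory subunit whose loss causes Leigh syndrome, measured 47.6, 41.6, 42.6 and 48.9 CPM against 24.3, 25.7 and 37.9 CPM (-0.62 ± 0.18, adjusted p 0.0771). In both genes the groups did not overlap, and in Ndufs4 KPC replicate 3 lay far above the other KPC libraries.

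In complex V, Atp5e measured 62.4, 54.6, 68.8 and 81.6 CPM in controls and 42.2, 33.5 and 42.7 CPM in KPC (-0.76 ± 0.17, adjusted p 0.0632). Atp5k, a small membrane subunit, had -0.78 ± 0.23 (adjusted p 0.0780) and Atp5s -1.01 ± 0.67 (adjusted p 0.292). Atp5c1, the gamma subunit of the rotor, measured 121, 105, 113 and 123 CPM against 92.9, 84.8 and 92.2 CPM (-0.36 ± 0.12, adjusted p 0.0940). Neither Atp5e nor Atp5c1 overlapped between the groups, and KPC replicate 3 was not apart from the other KPC libraries in them. Atp5sl measured 9.56, 9.27, 6.81 and 8.56 CPM in controls and 13.8, 14.3 and 11.2 CPM in KPC (0.61 ± 0.20, adjusted p 0.0886). It was the single subunit gene with every KPC library above every control (1.23%, against 14.5% of all genes).

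Among the rest, Ndufb2 (-0.77) was the second lowest of complex I, and the core subunit Ndufv1 (0.28) was among the highest. In complex II, Sdhd (-0.28) and Sdhb (-0.27) lay below Sdhc (-0.18) and Sdha (-0.07). In complex III, Uqcrb (-0.53) and Uqcr11 (-0.46) were lowest and the Rieske protein gene Uqcrfs1 highest (0.30). Cox7b (-0.54) and Cox6b1 (-0.50) were the lowest ubiquitous subunits of complex IV, and Atp5l (0.43) was, with Atp5sl, the highest in complex V. Of the transcript of Atp5l, 83.3% of windows are shared with other genes, so that its counts are uncertain.

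**Figure D4:**
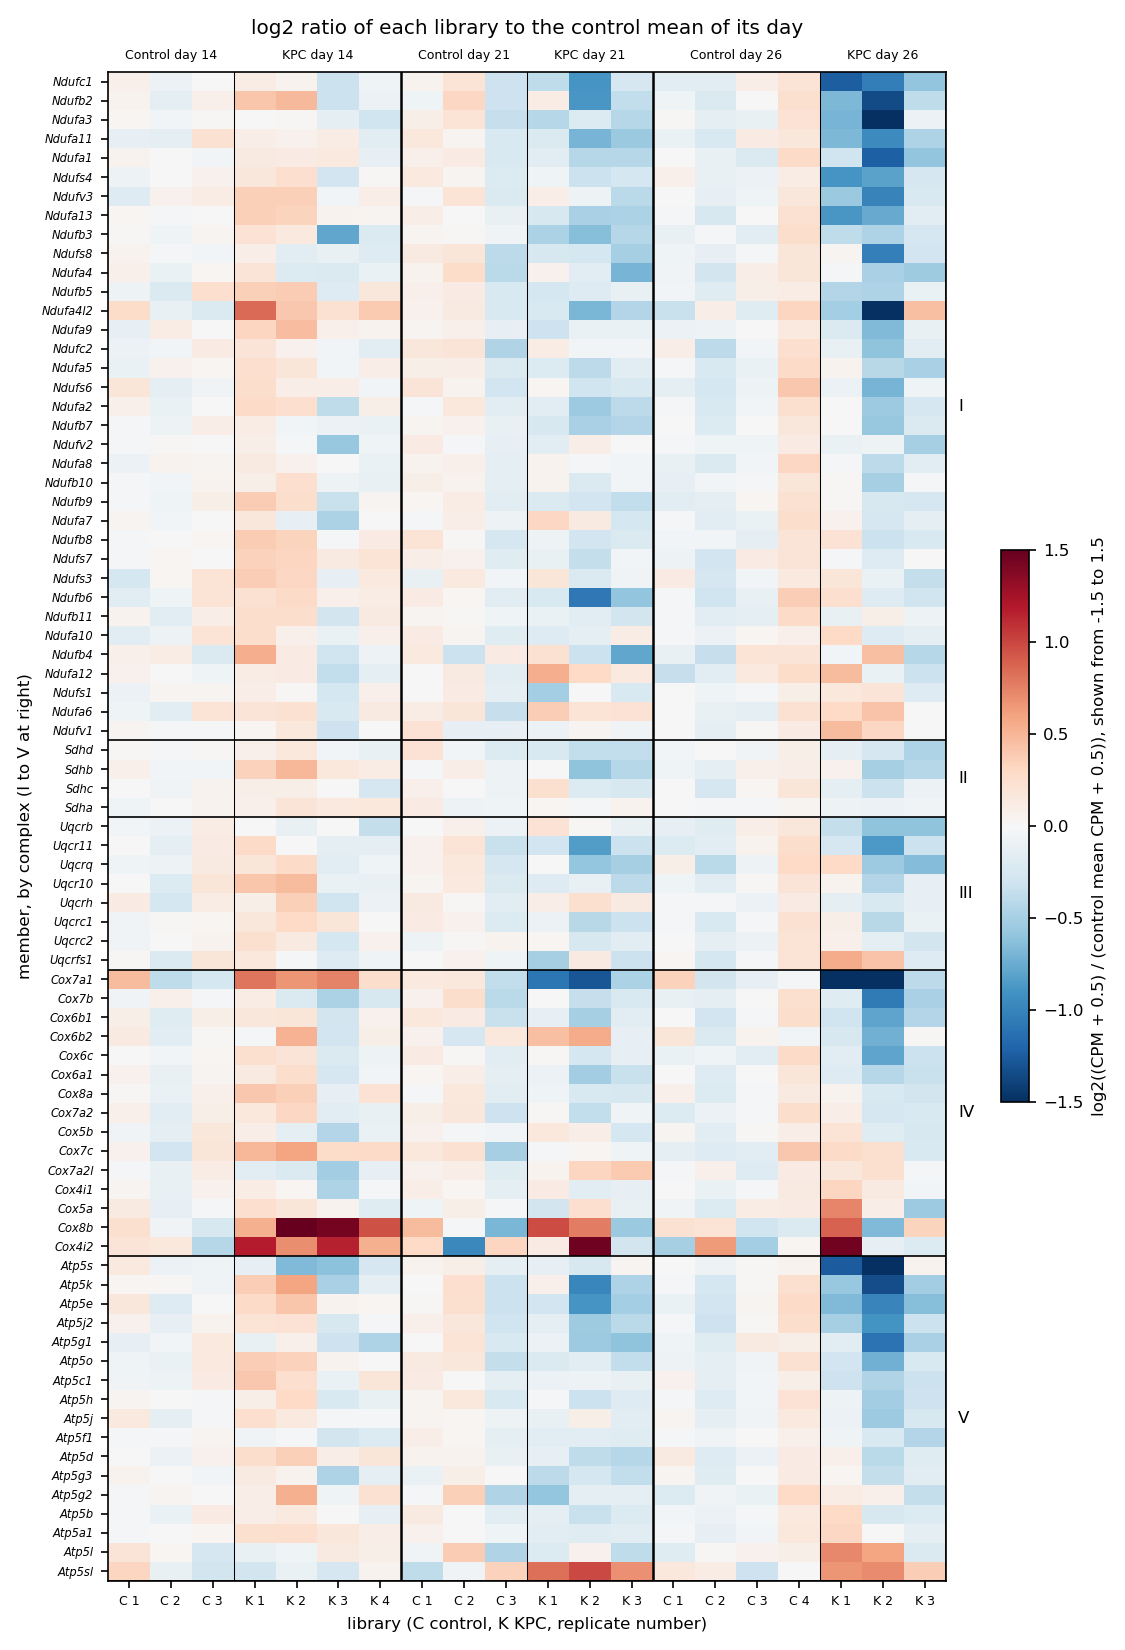
Log2 ratio of CPM (plus 0.5) to the control mean of the day (plus 0.5) for 79 of the subunit genes tested at all 3 days, in each of the 20 libraries, by complex and ordered by the day 26 log2 fold change; colours stop at ±1.5. KPC replicates 1 and 2 at day 26 show the deepest lower values, in genes such as Ndufc1 and Ndufs4, and KPC replicate 3 is paler in these. In other genes KPC replicate 1 lies above 0 and KPC replicate 3 below it, such as Uqcrq (0.30 and -0.65) and Cox5a (0.74 and -0.55).

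KPC replicate 3 was the KPC library of day 26 nearest the controls on the first principal component. In the subunit genes it was not: they summed to 4972, 3965 and 4153 CPM in KPC replicates 1, 2 and 3, against 4394 to 5472 CPM in controls. Without KPC replicate 3, 20 subunit genes fell (24.7%, against 25.9% of all genes) and 6 rose (7.41%, against 25.7%). The members' share of falls was thus near that of all genes, and their share of rises below it. The fallen genes included 10 accessory subunits of complex I, among them Ndufc1 (-1.21), Ndufs4 (-0.87), Ndufa11 (-0.83), Ndufa13 (-0.83) and Ndufv3 (-0.78). The risen genes included the core subunit Ndufv1 (0.38), Uqcrfs1 (0.49), Atp5l (0.66), Atp5sl (0.70) and Cox6a2 (2.48). No core subunit of complex I fell, and the difference between core and accessory subunits was not itself tested.

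Among the 5 day 26 libraries with the shared code number (control replicates 1 to 3 and KPC replicates 1 and 2), 14 subunit genes fell (17.3%, against 22.8% of all genes) and 7 rose (8.64%, against 24.3%). Ndufs4 (-0.80), Ndufc1 (-1.11) and Ndufa11 (-0.75) were again among the fallen, and the risen genes included Atp5l, Atp5sl, Cox7c, Ndufa6, Ndufv1 and Uqcrfs1. The leading number of the code was the same in both groups here, but the letter after it was B in these controls and C in these KPC libraries. What the letter stands for is not given in the sources used here, and its part in the values was not tested. KPC replicate 1 had higher marker sums of other cell types than any control of day 26, except for tenocytes (569.5 against 410.5 to 1167 CPM). Its satellite cell sum was only just above the controls (60.8 against 32.9 to 57.4 CPM). Its Pecam1 was 241 CPM and its Adipoq 40.5 CPM, against 4.45 to 15.8 and 0 to 0.271 CPM in controls. The endothelial marker Tek went the other way (133 CPM against 338 to 446 CPM). KPC replicate 2 was mixed. Its Pecam1 (26.4 CPM) and Adipoq (0.451 CPM) also lay above every control. Cdh5, another endothelial gene, lay within the controls (17.1 against 6.17 to 24.5 CPM), and the summed endothelial markers lay below them (328 against 380 to 556 CPM). Its summed mural cell markers (86.2 CPM) and satellite cell markers (15.5 CPM, 4 of 6 at 0) were below every control too. In KPC replicate 2 the summed macrophage and leukocyte markers (41.2 against 19.3 to 25.1 CPM), adipocyte markers (54.9 against 15.1 to 42.3 CPM) and myofibre markers (125 against 36.9 to 121 CPM) lay above every control. So did its summed erythroid markers (21.5 against 0.271 to 2.10 CPM), but 4 of those 6 markers were at 0. In controls 4 or 5 were at 0, and only Alas2 could be tested. Most of the adipocyte sum of KPC replicate 2 was Fabp4 (47.9 against 12.5 to 39.5 CPM in controls). The progenitor markers of KPC replicate 2 lay below every control. The part of these cell types in the values was not tested.

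In a single fit of all 20 libraries, whose groups share an estimate of the spread, 19 subunit genes fell at day 26 (23.5%, against 15.5% of all genes) and 1, Atp5sl, rose (1.23%, against 19%). At day 21 the same fit called Atp5sl alone, which rose, where 1.94% of all genes rose and 1.15% fell. This fit also tests more genes (14141) than that of day 26 alone, and which of these changes moved the calls was not tested.

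The tumour effect was then compared between days in this fit, each day keeping its own controls. From day 14 to day 26 the log2 fold change fell in 7 of 81 subunit genes (8.64%, against 4.72% of all genes) and rose in none (9.6% of all genes). The genes were Atp5e (difference -0.96 ± 0.24, SE, adjusted p 0.0176), Ndufc1 (-0.91 ± 0.28, adjusted p 0.0381), Ndufv3 (-0.76 ± 0.23, adjusted p 0.0352), Ndufa13 (-0.76 ± 0.21, adjusted p 0.0273), Ndufa11 (-0.72 ± 0.22, adjusted p 0.0362), Ndufs4 (-0.67 ± 0.22, adjusted p 0.0446) and Atp5c1 (-0.55 ± 0.16, adjusted p 0.0306). They are 5 accessory subunits of complex I and the epsilon and gamma subunits of the ATP synthase. The median difference over the 81 genes was -0.30, with 69 below 0.

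The control levels of some of these genes also differed between days. On a scale common to all 20 libraries, Atp5e had 107 ± 14.2 CPM per kb in controls at day 14 and 162 ± 28.6 at day 26 (mean ± SD). Ndufv3 had 31.5 ± 3.39 and 49.6 ± 4.88. Controls of Ndufc1 (11.3 ± 0.732 and 11.7 ± 1.64) and Atp5c1 (96.1 ± 7.66 and 101 ± 7.88) were alike at these days. Differences between the controls were not tested, and the CPM values that follow are scaled within a day. Atp5e measured 52.2, 40.3 and 46.4 CPM in controls and 56.6, 61.8, 48.2 and 47.2 CPM in KPC at day 14, against 54.6 to 81.6 CPM in controls at day 26. Ndufv3, a matrix-arm accessory subunit, measured 44.7, 53.2 and 55.2 CPM in controls and 65.3, 65.5, 49.6 and 54.8 CPM in KPC at day 14, and 77.5, 70.4, 73.2 and 86.4 CPM against 52.2, 38.2 and 65.4 CPM at day 26. For both genes the groups overlapped at day 14 and did not at day 26, and the controls at day 26 were the higher ones. Ndufa13 measured 77.5, 74.7 and 75.7 CPM in controls and 97.5, 95.8, 78.8 and 77.9 CPM in KPC at day 14, and 85.9, 74.4, 87.5 and 103 CPM against 47.6, 51.8 and 78.8 CPM at day 26. KPC lay above every control at day 14, and at day 26 KPC replicate 3 lay within the controls.

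From day 14 to day 21 no subunit gene was called (0.537% of all genes rose and 0.106% fell; median difference -0.27), and from day 21 to day 26 none was either (0% and 0%; median -0.08). At an unadjusted p under 0.05 the edgeR test gave 23 subunit genes from day 14 to 26 (28.4%, against 33.1% of all genes), 11 from day 14 to 21 (13.6%, against 15.1%) and 1 from day 21 to 26 (1.23%, against 12.9%). The count of 7 rested on single libraries: it was 0 without KPC replicate 2 of day 26, 22 without KPC replicate 3 of day 26, and 1 without control replicate 1 or 2 or KPC replicate 1 or 2 of day 14 or control replicate 4 of day 26. It was 2 without control replicate 1 of day 26, and 3 without control replicate 3 of day 14, control replicate 3 of day 26 or KPC replicate 1 of day 26.

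**Figure D5:**
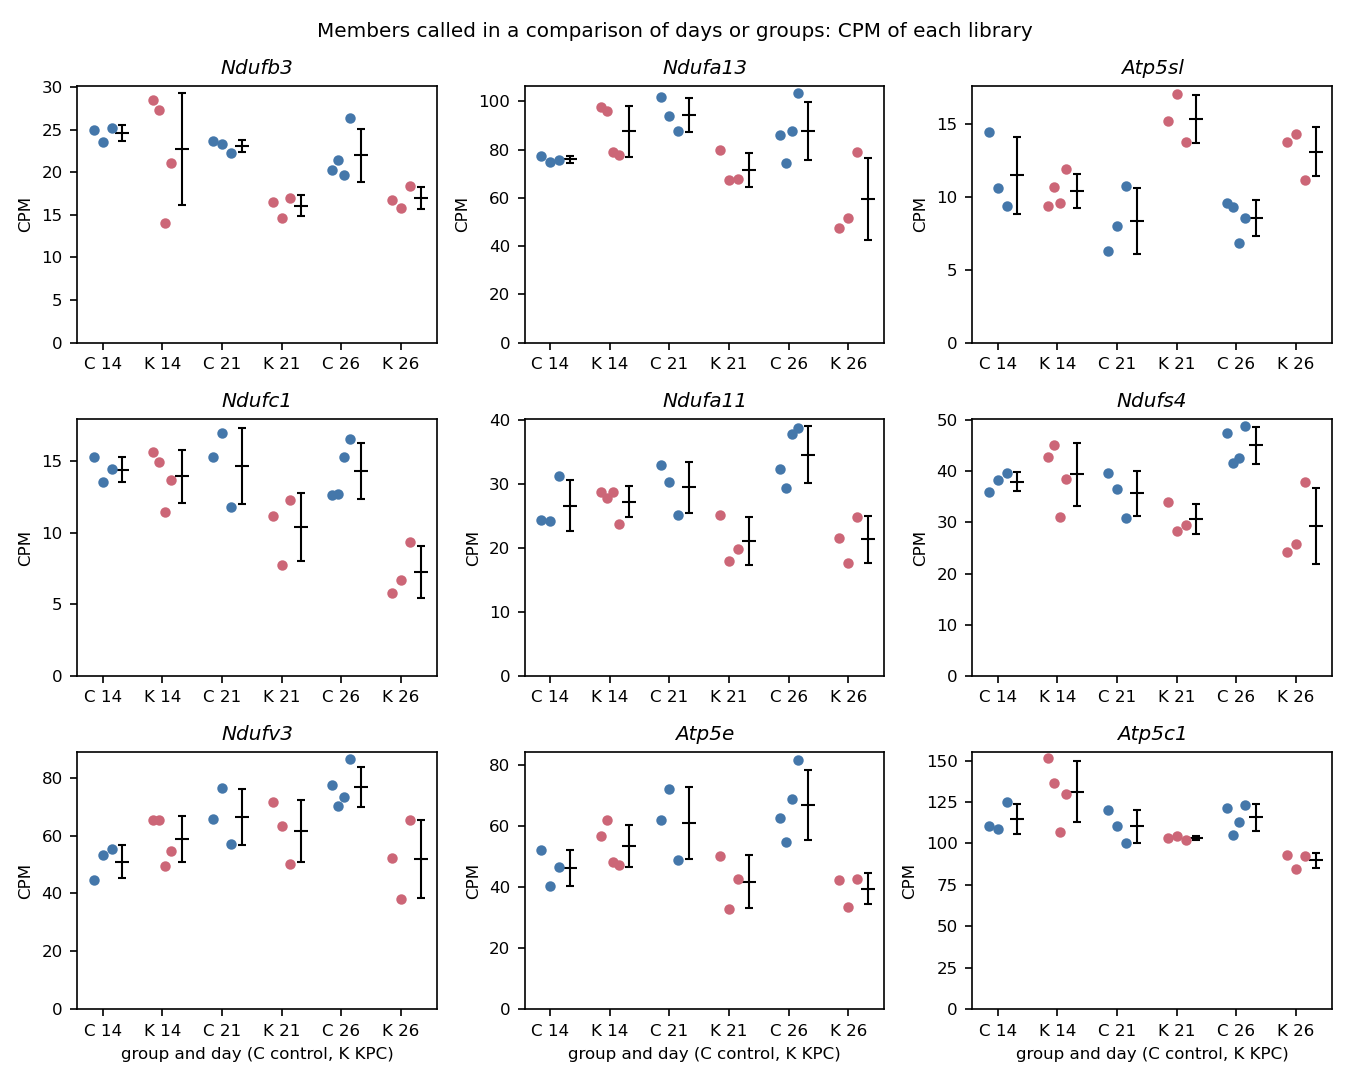
CPM in each library of Ndufb3, Ndufa13, Atp5sl, Ndufc1, Ndufa11, Ndufs4, Ndufv3, Atp5e and Atp5c1 in control and KPC libraries at days 14, 21 and 26; bars are the mean ± SD. Ndufc1 lies at 5.80 to 9.33 CPM in KPC at day 26 against 12.7 to 16.6 CPM in controls, and Atp5sl is higher in KPC at days 21 and 26.

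The central subunits of each complex, which carry out its chemistry or hold its core together, were not called at any day in the comparison of all libraries of that day. Ndufs1, the largest core subunit of complex I, had log2 fold changes of -0.01, -0.23 and 0.07 at days 14, 21 and 26, and Ndufv1, the NADH-binding subunit, -0.02, -0.03 and 0.28. Sdha varied little: it measured 169 to 184 CPM in controls and 187 to 203 CPM in KPC at day 14, 169 to 194 and 176 to 185 CPM at day 21, and 176 to 185 and 169 to 174 CPM at day 26. Every KPC library lay above the controls at day 14 and below them at day 26, with log2 fold changes of 0.14 and -0.07 that did not pass the test. Uqcrc1, a core protein of complex III, had 0.17, -0.27 and -0.13.

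Atp5a1, the alpha subunit of the ATP synthase, measured 318, 328 and 331 CPM in controls and 385, 387, 365 and 350.1 CPM in KPC at day 14 (0.19), and 392, 372 and 360 CPM against 337, 330 and 332 CPM at day 21 (-0.17). It lay above every control at day 14 and below every control at day 21, in neither case past the test. At day 26 it overlapped (0.06). Atp5b overlapped at all 3 days (0.04, -0.23 and -0.03). Ndufa4 had -0.07, -0.23 and -0.34, and its paralog Ndufa4l2, a gene also known from mural cells, 0.50, -0.45 and -0.32. Ndufa4l2 was 13.5, 18.3, 15.01 and 21.5 CPM in controls and 11.9, 5.52 and 23.5 CPM in KPC at day 26, the highest value being that of KPC replicate 3.

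Genes that build or serve the chain gave 5 calls in all, each at day 21, which is 2.38% of the 210 genes tested in these lists against 12.5% of all genes called that day in either direction. Uqcc2, an assembly factor of complex III, fell from 62.9 ± 7.80 CPM to 31.1 ± 10.7 CPM (SD, n = 3 each; log2 -1.01 ± 0.24, SE, adjusted p 0.0251), the only call among 10 assembly factors of complexes II and III. Of 22 complex IV assembly factors Coa3 (-0.61 ± 0.15, adjusted p 0.0197) and Higd1a (-0.65 ± 0.18, adjusted p 0.0326) fell. Mrps28 (-0.86 ± 0.23, adjusted p 0.0303) fell among 77 mitochondrial ribosomal proteins, and Nrip1, a corepressor of metabolic genes, rose among 18 regulators of mitochondrial biogenesis (0.61 ± 0.15, adjusted p 0.0195). None of 14 complex I assembly factors, 4 ATP synthase assembly factors, 17 electron carriers and feeders, 19 citric acid cycle and pyruvate dehydrogenase genes, 7 carriers and uncoupling proteins or 22 import and cristae genes was called. Their smallest p at day 21 belonged to Ndufaf3 (-0.77 ± 0.25, adjusted p 0.0636) for complex I assembly.

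At day 26 Uqcc2 lay at 74.6 ± 13.9 CPM in controls (n = 4) and 25.8 ± 16.7 CPM in KPC (n = 3), below every control (log2 -1.53 ± 0.42, SE, adjusted p 0.0724), and Nrip1 at 61.0 ± 4.07 and 111 ± 37.9 CPM (0.86 ± 0.21, adjusted p 0.0671). The median log2 fold change at day 26 was -0.34 over the complex I assembly factors, -0.68 over those of complexes II and III, -0.19 over the mitochondrial ribosomal proteins, 0.01 over the citric acid cycle genes and 0.38 over the regulators of biogenesis.

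Most subunit transcripts are short. The median transcript length was 861 bases for the 81 subunit genes tested at day 26 and 3037.5 bases for all genes. Among genes of at most 1000 bases the median log2 fold change was 0.04, -0.06 and -0.11 at days 14, 21 and 26 over all genes (776, 763 and 772 genes) and 0.09, -0.20 and -0.21 over the subunit genes (48, 47 and 48). Across genes, length and log2 fold change at day 26 had a rank correlation of 0.107 over all genes and 0.135 over the subunit genes, which share libraries and are not independent. Core subunits of complex I have a median length of 1623 bases and membrane-arm accessory subunits 732 bases. The part of transcript length in the values above was not tested.

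Of the genes that carry the results, Atp5e and Atp5sl share no window of 59 bases with another gene, Ndufc1 2.43%, Ndufb3 5.53% and Ndufa11 7.19%. Counts of Atp5g2 (87.2%), Atp5l (83.3%), Cox7c (52.1%), Atp5h (42.3%), Uqcrb (38.2%) and Ndufb4 (36.4%) are uncertain in this respect. In mm10, Ndufb3 lies on chromosome 1 (58586384 to 58595964, plus strand) and Ndufa13 on chromosome 8 (69894180 to 69902558, minus strand).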

How the data were processed

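Per the labels' protocols, only RNA of integrity number 7 or more was used, libraries were made with a stranded mRNA kit, and reads were pairs of 59 bases. The authors deposited whole-number raw counts by gene symbol, with 1 column for each library, per the labels and file headers. Build mm10 and the tools STAR, Bowtie, bcl2fastq 2.20, R 4.2.1 and DESeq2 1.36.0 are named in the submitters' processing notes. What program counted the reads, and whether by strand, is not given in the sources used here. KPC was compared with control within each day by edgeR 4.0.16 (R 4.3.3; TMM, filterByExpr with a minimum count of 10 and total of 15, robust quasi-likelihood test, 2-sided, Benjamini-Hochberg over all genes of the day; called at an adjusted p under 0.05). The SE is the size of the log2 fold change over the root of its F statistic. Differences between days were contrasts in a fit of all 20 libraries. Alternatives were scaling by library size, DESeq2 1.42.0, no filter, the joint fit, a replicate block, the shared code number and leaving out each library. Tests were checked on simulated counts. Transcript lengths and shared windows come from GENCODE vM21 (mm10), with the principal transcript of each gene.

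The genes and lists were chosen with earlier results of these data known, and the roles within complexes were assigned after values were seen. Named are all called genes, the 2 highest and 2 lowest of each complex and day, isoform pairs and the central subunits; Ndufs4, Ndufv3, Atp5c1 and others called between days or in an alternative were added after their values were seen. Counts rest on 12.9 to 26.4 megacounts per library, and the limit for a count of 0 (3 counts) covers counting error only. A single subunit gene enters all counts and medians but is not reported here by name or value, and is left out of the plots that label genes.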

Additional observations from a re-analysis of the deposited data

Results flagged for a closer look

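The tumour effect on 7 of 81 subunit genes differed between day 14 and day 26 by the edgeR test of the difference itself. In each gene the log2 fold change was lower at day 26 (8.64%, against 4.72% of all genes), and 0 were called higher (9.6% of all genes). The count rested on single libraries, as given above, and at day 14 the code number of the libraries and the tumour cannot be told apart. The difference was -0.96 for Atp5e, -0.91 for Ndufc1, -0.76 for Ndufv3, -0.76 for Ndufa13, -0.72 for Ndufa11, -0.67 for Ndufs4 and -0.55 for Atp5c1. A check for single libraries far from the rest of their group was made in 26 groups of values of 4 libraries, all from KPC at day 14 or control at day 26. None was found. The groups of 3 libraries, among them KPC at days 21 and 26, were not checked.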

How the results depend on the processing

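The median log2 fold change of the subunit genes kept its sign at each day under all alternatives run, but ranged from 0.02 to 0.13 at day 14, from -0.28 to -0.13 at day 21 and from -0.27 to -0.11 at day 26. Counts of called subunit genes moved by more. DESeq2 called 2 at day 14 (0 by edgeR), 5 at day 21 (3 by edgeR) and 10 at day 26 (0 by edgeR), that is 2.47%, 6.25% and 12.3% of the subunit genes tested against 4.5%, 17.2% and 21.6% of all genes. At day 21, scaling by library size alone and the fit of all 20 libraries each called 1. At day 26 the fit of all 20 libraries called 20 and the libraries with the shared code number 21. With each library left out in turn the count ran from 0 to 18 at day 21, from 0 to 26 at day 26, from 0 to 22 for the difference from day 14 to 26 (7 in the main test) and from 0 to 7 for that from day 21 to 26. The highest counts were those without KPC replicate 1 at day 21 and without KPC replicate 3 at day 26; the cause was not tested. Replicate numbers did not pair the samples (correlations of deviations from -0.115 to 0.147): with the replicate number as a block the counts were 0 at day 14, 2 at day 21, 0 at day 26 and 0 for the difference from day 14 to 26, and the median at day 26 was -0.12. The single genes recomputed, those with the largest or most significant differences of each day, kept their direction in all alternatives run. Of their values, 411 stayed on the same side of the threshold, 83 were no longer past it and 61 were newly past it. Depth limits the tissue-restricted complex IV genes, most of which lie near 1 CPM.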
